A study of Mus musculus with 36 samples.

Results

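The step from time 24 to time 48 was followed in wild type mouse embryonic fibroblasts, over all genes that the array measured. The samples were 4 wild type arrays of time 48 (replicates 1 to 4) and 4 wild type arrays of time 24 (replicates 1 to 4), chosen by their labels, 8 of the 36 arrays of the study. The labels give times without a unit. The study also held wild type arrays of times 0, 2 and 6 and the same 5 times in PKBa-/- fibroblasts, which lack the protein kinase PKBa (gene Akt1). It had 4 arrays per genotype and time except time 2, with 2. Both genotypes were fibroblast cultures from 13.5-day embryos of matings between heterozygous PKBa mice, used at passages 15 to 20 in DMEM with 10% foetal calf serum. The labels do not say how many embryos or cultures gave the RNA, nor whether replicates were separate cultures. The p-values measure a spread between averages of array pairs, pooled over the groups of both genotypes, and this spread may be technical. The series title speaks of DMEM treatment, and the protocol also describes an adipocyte induction medium for cells that had been confluent, without saying which arrays received it.

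Fibroblasts that crowd a dish or run short of serum growth factors leave the division cycle. Genes of mitosis, the step at which copied chromosomes are parted, are made late in each cycle and are commonly read as a measure of how many cells are dividing. Resting fibroblasts also alter the matrix proteins, adhesion proteins and chemokines they make, and growth factor signalling through ERK leaves its mark on genes such as Fos and Dusp6. Akt1 encodes a kinase that insulin and other growth factors activate through PI3K.

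Each array gave 1 linear signal for every probe set, and a gene was taken from the probe set with the highest mean log2 signal over all 36 arrays. Medians of the 8 arrays were 138 to 145; precision is limited by the number of arrays. Akt1 read 843 to 1395 in the wild type arrays of all times and 43.8 to 103 in the PKBa-/- arrays, as the labels say. The 2 arrays of a replicate pair (1 and 2, or 3 and 4) correlated at 0.982 to 0.995 within wild type time 48 and time 24, and at 0.942 to 0.957 with the arrays of the other pair. The arrays of a pair were therefore averaged before testing. Of 11 fibroblast markers on the array, 8 had a mean signal over 1000 in these 8 arrays, Col1a2 among them, and none of the markers of macrophages and leukocytes, skeletal muscle, cartilage and bone, epithelium or nerve did. Of 16 mesothelial markers on the array, 8 did, as did 4 of 24 adipocyte markers, Cebpb the brightest, and 1 of 12 endothelial markers. In such bulk RNA, fewer cells of a type and less RNA per cell cannot be told apart.

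At time 48 the wild type fibroblasts had less mRNA of mitosis genes than at time 24. Ccnb2, cyclin B2, averaged 349.5 ± 37.3 signal units at time 48 and 768 ± 80.2 at time 24 (SD, n = 4). Dusp6, a phosphatase that switches off ERK kinases, averaged 396 ± 45.5 at time 48 and 189 ± 28.4 at time 24. Fos, a subunit of the AP-1 transcription factor, the adhesion protein gene Vcam1 and the basement membrane gene Nid2 were also higher at time 48, and the epoxide hydrolase gene Ephx2 and the matrix proteoglycan gene Vcan were lower.

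How firmly such genes stand depended on how the replicate pairs entered the test. In limma on the pair averages with group means alone, no gene of 7436 passed an adjusted p of 0.05 (0%), while 241 (3.24%) had an unadjusted p under 0.05. Arrays with the same replicate number deviated together at times 48 and 24 in each of the 4 numbers, with correlations of 0.535 to 0.719. As the arrays of a pair lie close together, these 4 values largely repeat 1 contrast between the pairs. They do not show matching by single number. With the replicate pair of each genotype as a block, 58 genes passed (0.78%), 19 higher at time 48 (0.256%) and 39 lower (0.524%). Below, "rose" and "fell" mean that a gene passed with this block, and changes are log2 differences, time 48 minus time 24, of signal + 32, with the SE and adjusted p of that fit. With array weights added to the block, 1 of the 58 passed, and all 58 had an unadjusted p under 0.05.

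Of the 58 genes, 42 had an unadjusted p under 0.05 without the block. All 58 had the same sign in both replicate pairs, but the block favours such genes, so this is no support for the calls. In 11 of those that rose, all 4 arrays of time 48 lay above all 4 of time 24, which held for 161 of all 7436 genes (2.17%). In 27 of those that fell, all 4 lay below, which held for 327 of all genes (4.4%). The arrays of the other 20 overlapped between the times. The genes were called from these same arrays. These counts, and the unadjusted p-values above, describe the calls and are no separate support. Across the 7436 genes, the change in replicates 1 and 2 and that in replicates 3 and 4 correlated weakly (Pearson 0.307, Spearman 0.188, as a description over genes measured on the same arrays). The median change over all genes was -0.02 (0.01 in replicates 1 and 2, and -0.06 in replicates 3 and 4). Changes over 2-fold on this scale were seen in 10 genes, 4 higher and 6 lower, and 9 of these, 4 higher and 5 lower, are among the 58.

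**Figure D1:**
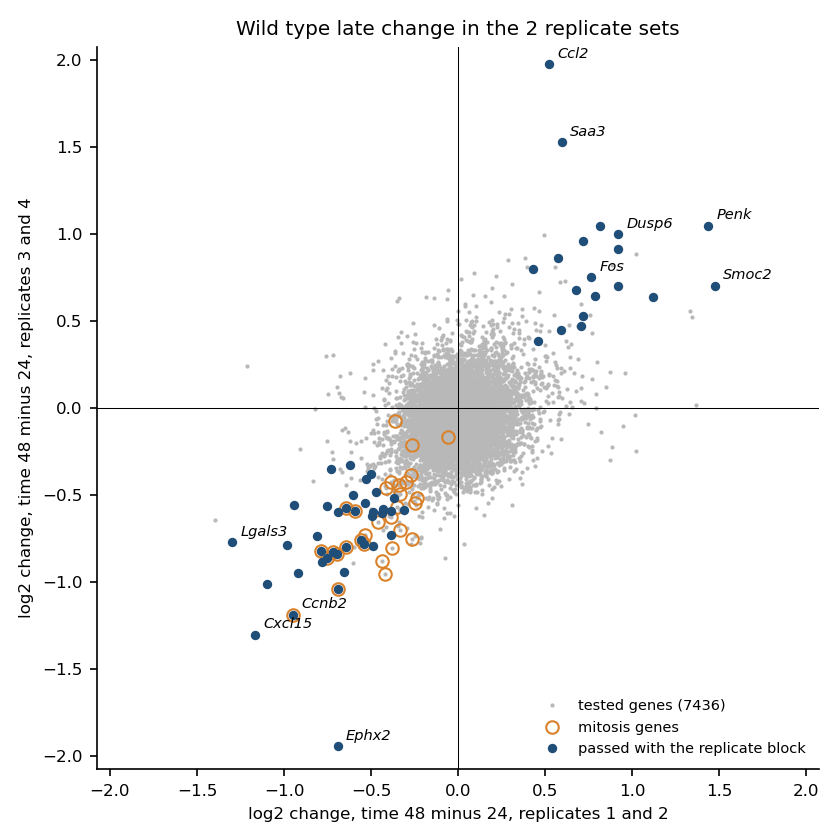
Each point is a gene, with its log2 change from time 24 to time 48 in wild type replicates 1 and 2 on the x axis and in replicates 3 and 4 on the y axis; filled points are the 58 genes that passed with the replicate block and open circles the 31 tested mitosis genes. All 31 mitosis genes lie below 0 on both axes, and Ephx2, Ccl2 and Saa3 moved further in replicates 3 and 4.

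Genes of mitosis were the list with the most members that fell. Of 40 listed genes, 37 were on the array and 31 were tested. Of these, 11 fell, against 0.524% of all tested genes, and none rose. The list's median change was -0.56 (-0.42 in replicates 1 and 2, and -0.65 in replicates 3 and 4), against -0.02 for all genes, and single members ran from -1.07 to -0.11. All 31 were below 0 in both replicate pairs, as were 2378 of all tested genes (32%). In 25 of the 31 genes the 4 arrays of time 48 lay below the 4 arrays of time 24, which held for 4.4% of all genes. Without the block none of the 31 passed.

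Ccnb2 encodes a partner of the kinase CDK1 that drives entry into mitosis. Its signal was 363, 330.3, 395 and 309.8 in replicates 1 to 4 at time 48, against 694, 704, 847 and 827 at time 24. Every array of time 48 was below every array of time 24, and the replicate pairs stood close together (-1.07 ± 0.17, adjusted p = 0.013; 0.38 without the block). Cdc20 activates the ubiquitin ligase that ends mitosis. It read 655, 638, 876 and 842 at time 48, against 1126, 1100.1, 1359 and 1848 at time 24, again without overlap (-0.81 ± 0.13, adjusted p = 0.013). Pttg1, or securin, blocks the parting of sister chromatids until that ligase destroys it. Its arrays gave 1633, 1604, 2109 and 2141 at time 48 and 2537, 2845, 3584 and 4002 at time 24, with replicates 3 and 4 the higher pair at both times (-0.77 ± 0.11, adjusted p = 0.0079). Ube2c is the ubiquitin-conjugating enzyme of the same ligase. It had 621, 626, 862 and 729 at time 48 and 966, 1022, 1298 and 1509 at time 24, and the times did not overlap (-0.72 ± 0.14, adjusted p = 0.032).

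Cenpa, the histone H3 variant that marks the centromere, read 379, 304, 486 and 393 at time 48, against 578, 639.8, 838 and 759 at time 24. No array overlapped between the times (-0.80 ± 0.14, adjusted p = 0.02). Kif20a and Racgap1 act in cytokinesis, the parting of the daughter cells. Kif20a, a kinesin, gave 153, 146, 197 and 169 at time 48 and 242, 280.3, 416 and 403 at time 24 (-0.86 ± 0.16, adjusted p = 0.022). Racgap1, a subunit of the centralspindlin complex, gave 380.5, 414, 419 and 504 at time 48 and 683, 645, 851 and 842 at time 24 (-0.77 ± 0.11, adjusted p = 0.0079). In both genes the 4 arrays of time 48 were the 4 lowest. The other members that fell were Bub1b, a spindle checkpoint kinase (-0.66 ± 0.14), Ccna2, cyclin A2 (-0.66 ± 0.12), Cks2, a small subunit of cyclin-dependent kinases (-0.61 ± 0.11), and Tpx2, a spindle assembly factor (-0.59 ± 0.12). Their adjusted p ran from 0.02 for Cks2 to 0.044 for Bub1b. Among the 20 that did not pass were Birc5 (-0.66, adjusted p = 0.085), Plk1 (-0.52, adjusted p = 0.098), Cdk1 (-0.46, adjusted p = 0.09) and Top2a (-0.39, adjusted p = 0.33).

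Promoters of mitosis genes are known for 2 short elements, the CCAAT box, bound by the factor NF-Y, and the cell cycle homology region, TTTGAA, bound by complexes that silence these genes in resting cells. RefSeq promoters (GRCm38.p6, 250 bases before to 50 bases after the start of the gene) were matched for 8 of the 11 mitosis genes that fell. Searched on both strands, CCAAT was found in 7 of the 8 (87.5%) and TTTGAA in 6 (75.0%), and 6 held both. Of the 26 tested mitosis genes with a promoter, 76.9% held CCAAT, 76.9% held TTTGAA and 69.2% held both. Among the 6056 tested genes with a promoter the shares were 42.6%, 13.8% and 6.75%, and among all 27025 genes with a promoter 41.1%, 20.2% and 8.97%. A match of one motif is never a match of the other. A match describes the letters in this window and shows no binding. The 5 promoters below were chosen from these 8 because they hold both motifs between 120 bases before and 30 bases after the start. Among those not shown, Pttg1 held neither motif, and Cks2 and Bub1b held CCAAT and no TTTGAA in that window. Capitals mark CCAAT and TTTGAA, or their reverse complements ATTGG and TTCAAA. The windows are chr9:70421525-70421674 (minus strand) for Ccnb2, chr4:118437314-118437463 (minus strand) for Cdc20, chr5:30666766-30666915 (plus strand) for Cenpa, chr2:164769809-164769958 (plus strand) for Ube2c and chr15:99651627-99651776 (minus strand) for Racgap1, each printed 5′ to 3′ on the strand of its gene.
Ccnb2: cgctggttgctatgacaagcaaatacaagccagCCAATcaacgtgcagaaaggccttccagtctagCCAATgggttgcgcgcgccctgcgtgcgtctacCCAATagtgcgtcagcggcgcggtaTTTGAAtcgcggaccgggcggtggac
Cdc20: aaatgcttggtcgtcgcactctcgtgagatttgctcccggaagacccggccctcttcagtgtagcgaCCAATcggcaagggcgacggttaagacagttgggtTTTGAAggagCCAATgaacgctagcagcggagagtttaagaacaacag
Cenpa: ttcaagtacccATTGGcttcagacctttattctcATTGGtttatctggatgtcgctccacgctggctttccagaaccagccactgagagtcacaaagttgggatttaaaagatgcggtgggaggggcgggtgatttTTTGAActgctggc
Ube2c: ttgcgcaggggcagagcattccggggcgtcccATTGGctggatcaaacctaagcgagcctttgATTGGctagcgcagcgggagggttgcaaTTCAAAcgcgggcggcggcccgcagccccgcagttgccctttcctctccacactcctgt
Racgap1: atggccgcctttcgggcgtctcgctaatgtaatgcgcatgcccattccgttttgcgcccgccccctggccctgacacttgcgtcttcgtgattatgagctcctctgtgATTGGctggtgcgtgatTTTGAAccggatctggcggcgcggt

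Further genes of cell division outside that list also fell. Cdca3, which helps trigger entry into mitosis, read 385, 405, 509.5 and 457 at time 48, against 752, 798, 942 and 977 at time 24. The times did not overlap, and the change was alike in both replicate pairs (-0.93 ± 0.14, adjusted p = 0.0084; -0.92 in replicates 1 and 2, and -0.95 in replicates 3 and 4). Mki67, the gene of the proliferation marker Ki-67, averaged 278 ± 58.1 at time 48 and 502 ± 31.8 at time 24 (-0.80 ± 0.17, adjusted p = 0.044). Ckap2 and Tacc3, which act at the spindle, changed by -0.49 ± 0.10 and -0.45 ± 0.09, and the centromere gene Cenpm by -0.48 ± 0.10. These 5 genes were singled out after their values were seen.

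Genes of DNA replication, made earlier in the cycle, gave another picture. Of 33 tested genes none passed, and the median change was -0.11, with members between -0.36 and 0.23. Of the 33, 18 were below 0 in both replicate pairs, against 32% of all genes. All arrays of time 48 lay below those of time 24 in 2, against 4.4% of all genes. Pcna, the sliding clamp of the replication machinery, read 2722, 2379, 3471 and 3094 at time 48, against 2864, 2893, 3302 and 3608 at time 24. Its arrays overlapped (-0.12 ± 0.09, adjusted p = 0.68). None of 20 tested cell cycle inhibitors and p53 targets passed either, with a median of 0.08.

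**Figure D2:**
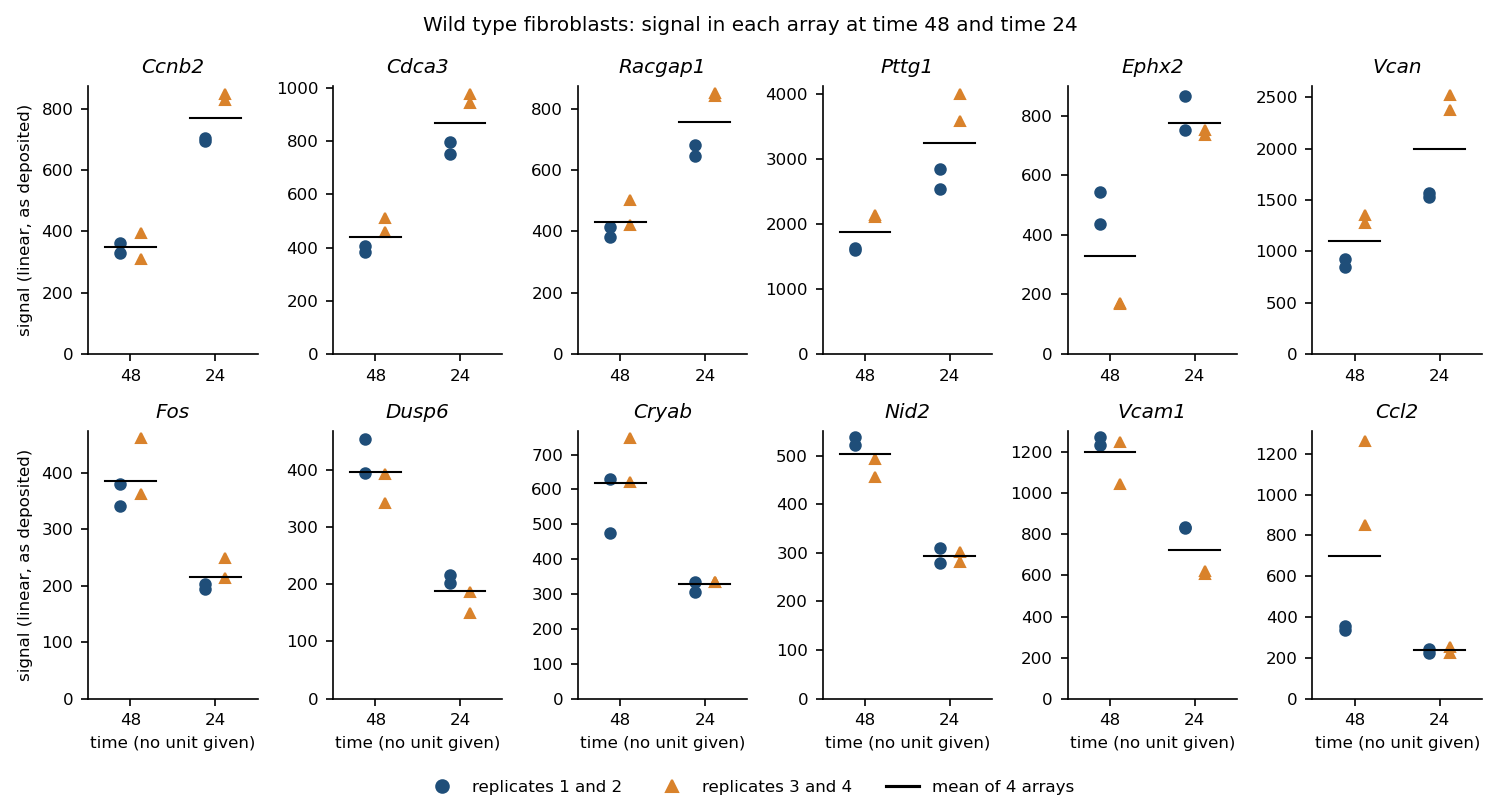
Signal on a linear scale in each wild type array at time 48 (left) and time 24 (right), for 6 genes that fell (upper row) and 6 that rose (lower row); circles are replicates 1 and 2, triangles replicates 3 and 4, and lines the mean of 4 arrays. No gene shown overlaps between the times, while Ephx2 at time 48 and Ccl2 at time 48 differ widely between the replicate pairs.

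Among genes outside division, Ephx2 had the most negative change of the tested genes that passed. It encodes soluble epoxide hydrolase, which turns fatty acid epoxides into diols. Its arrays gave 436, 543, 168 and 171 at time 48 and 751, 865, 751 and 736 at time 24. All arrays of time 48 were lower, those of replicates 3 and 4 most, so the size of the change differed between the pairs (-1.32 ± 0.25, adjusted p = 0.032; -0.69 in replicates 1 and 2, and -1.94 in replicates 3 and 4). In wild type at time 0 (66.5) and time 2 (90.1), and at every time in PKBa-/-, the mean of Ephx2 was under the filter on low signal. Ephx2 was therefore tested through the later wild type arrays, of which those of time 24 were the highest (mean 776). Its fall is measured from that same group, so the fall and its entry into the test are not independent. Pon3, a paraoxonase with lactonase activity, and Gpx7, a peroxidase of the endoplasmic reticulum, also fell (-0.54 ± 0.11 and -0.64 ± 0.13). Gpx7 read 399, 392, 416 and 346 at time 48, against 633, 684, 546 and 637 at time 24, with no overlap (adjusted p = 0.038). Selenoh, a nuclear selenoprotein, changed by -0.56 ± 0.12 (adjusted p = 0.049).

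Ebp, a sterol isomerase late in cholesterol synthesis, was the 1 gene of 19 tested in that list that passed, against 0.78% of all genes. It read 304, 268, 341 and 258 at time 48, against 419, 436, 453 and 442 at time 24, and the times did not overlap (-0.54 ± 0.09, adjusted p = 0.02). The list's median change was -0.25, and 15 of the 19 were below 0 in both replicate pairs, against 32% of all genes. Fdps and Cyp51, both enzymes of the pathway, changed by -0.44 (adjusted p = 0.36) and -0.43 (adjusted p = 0.22). None of 17 tested genes of fatty acid synthesis passed, with a median of -0.11.

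Matrix and cell surface genes moved in both directions. Vcan, or versican, is a large proteoglycan of loose matrix. It read 847, 926, 1355 and 1274 at time 48, against 1567, 1529.9, 2526 and 2374 at time 24. The highest array of time 48 was below the lowest of time 24, and replicates 3 and 4 stood above replicates 1 and 2 at both times (-0.83 ± 0.11, adjusted p = 0.0055). Ptn, the heparin-binding growth factor pleiotrophin, and Ltbp1, which stores latent TGF-beta in the matrix, fell within both pairs from very different levels. Ptn read 810.1, 669, 269 and 184 at time 48 and 1463, 1512, 416 and 401 at time 24 (-0.89 ± 0.11, adjusted p = 0.0055). Ltbp1 read 307, 329.9, 74.9 and 77.2 at time 48 and 700.2, 734, 193 and 178 at time 24 (-1.05 ± 0.20, adjusted p = 0.032). In both genes the arrays of the times overlapped over all 4 replicates and did not overlap within a pair.

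Nid2 and Lum rose in the same list. Nid2, nidogen-2, links laminin and collagen networks of basement membranes. It read 539, 523, 457 and 493 at time 48, against 311, 279, 282 and 302 at time 24, without overlap (0.72 ± 0.10, adjusted p = 0.0055). Lum, lumican, is a small proteoglycan that binds collagen fibrils. It read 2872, 2599.7, 528 and 489 at time 48, against 1428, 1430.1, 259 and 251 at time 24, so that replicates 1 and 2 stood far above replicates 3 and 4 at both times and each pair rose (0.92 ± 0.16, adjusted p = 0.02). Of 30 tested matrix glycoproteins and proteoglycans, 2 rose and 1 fell, with a median of 0.09. Of all tested genes, 0.256% rose and 0.524% fell. None of 19 tested collagens and none of 17 tested collagen processing genes passed. Smoc2, a secreted calcium-binding matrix protein, rose outside the list, with 2552, 2288, 284 and 261 at time 48 and 909, 792, 136 and 176 at time 24 (1.09 ± 0.18, adjusted p = 0.013). Its pairs differed in level like those of Lum. Fap, a protease of activated fibroblasts, had 902, 753, 193 and 164 at time 48 and 339, 386, 111 and 94.6 at time 24 (0.88 ± 0.16, adjusted p = 0.02).

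Genes linked to growth factor signalling were among those that rose. Fos had 380.0, 341, 462 and 363 at time 48, against 204, 194, 249 and 213 at time 24. The times did not overlap, and the change was nearly equal in the replicate pairs (0.76 ± 0.11, adjusted p = 0.0079; 0.76 in replicates 1 and 2, and 0.75 in replicates 3 and 4). Dusp6 read 454, 396, 393 and 343 at time 48, against 216, 202, 150.1 and 187 at time 24, again without overlap (0.96 ± 0.14, adjusted p = 0.0084). Both are members of the list of immediate early genes, of which 2 of 27 tested rose, against 0.256% of all genes, and none fell. The list had a median of 0.09 (0.03 in replicates 1 and 2, and 0.25 in replicates 3 and 4). Its members ran from -0.42 to 0.96. In 5 of the 27, Fos and Dusp6 included, all arrays of time 48 lay above those of time 24, against 2.17% of all genes. Egr1 changed by 0.06 and Jun by -0.12 (adjusted p = 0.93 for both). Without the block, Fos and Dusp6 both had an adjusted p of 0.29.

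Some genes of inflammation and adhesion rose. Vcam1, which tethers leukocytes through their integrins, read 1273, 1237, 1248 and 1046 at time 48, against 833, 835, 609 and 621 at time 24. All arrays of time 48 were higher (0.72 ± 0.12, adjusted p = 0.014). Ccl2, a chemokine that attracts monocytes, read 355, 337, 1262 and 852 at time 48, against 221, 241, 226 and 255 at time 24. No array overlapped, and replicates 3 and 4 of time 48 stood well above the other pair (1.25 ± 0.26, adjusted p = 0.042; 0.52 in replicates 1 and 2, and 1.98 in replicates 3 and 4). Saa3, an acute phase protein, read 948, 797, 2633 and 1507 at time 48, against 541, 589, 746 and 601 at time 24 (1.06 ± 0.22, adjusted p = 0.047). It too was higher in replicates 3 and 4 of time 48. Of 14 tested NF-kB targets and chemokines 2 rose, against 0.256% of all genes, and none fell. The medians were 0.01 in replicates 1 and 2 and 0.25 in replicates 3 and 4. Of 8 tested complement and acute phase genes 1 rose, against 0.256% of all genes, with a median of 0.37. The gene of the copper-binding ferroxidase ceruloplasmin, Cp, changed by 0.56 (adjusted p = 0.056). Cxcl15, a chemokine outside these lists, fell, with 173, 141, 967 and 719.5 at time 48 and 375, 408, 2279 and 1942 at time 24 (-1.23 ± 0.16, adjusted p = 0.0055). Its level differed more between the replicate pairs than between the times.

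Single genes of stress, actin and transcription also rose. Cryab, a small heat shock protein, read 629, 476, 747 and 622 at time 48, against 307, 333, 335 and 336 at time 24, with no overlap (0.84 ± 0.14, adjusted p = 0.014). It was the 1 gene of 20 tested cytosolic heat shock genes to pass, against 0.78% of all genes. Hmox1, which breaks down heme, read 535, 539, 996 and 836 at time 48, against 385, 398, 520.1 and 502 at time 24, with no overlap (0.61 ± 0.10, adjusted p = 0.013). Of 26 tested NRF2 targets and glutathione enzymes, Hmox1 was the 1 gene to pass, against 0.78% of all genes. Fscn1, fascin, bundles actin filaments. It had 2849.8, 2932, 2300.2 and 2973 at time 48 and 2078, 1749, 1712 and 2118 at time 24 (0.52 ± 0.09, adjusted p = 0.018). Mylk, myosin light chain kinase, averaged 507 ± 113 at time 48 and 279.7 ± 90.9 at time 24, where the highest array (374) lay just below the lowest of time 48 (383) (0.81 ± 0.14, adjusted p = 0.02). Net1, which activates the GTPase RhoA, changed by 0.68 ± 0.11, the transcription factors Ahr and Osr1 by 0.59 ± 0.12 and 0.93 ± 0.18, Nell2, a secreted glycoprotein, by 0.62 ± 0.11, and Ap1s2, a clathrin adaptor subunit, by 0.42 ± 0.09. Penk, the precursor of the enkephalin peptides, read 471, 512, 643 and 545 at time 48, against 153, 170.1, 251 and 290.0 at time 24, without overlap (1.24 ± 0.19, adjusted p = 0.0084).

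Several genes of the cytoskeleton and cell surface fell. Vim, the intermediate filament protein of fibroblasts, averaged 3168 ± 714 at time 48 and 5085 ± 1499 at time 24 (-0.66 ± 0.12, adjusted p = 0.022). Its arrays overlapped, and replicates 1 and 2 stood higher at both times. Anxa2, a membrane-binding annexin, had 5589, 5570.4, 3166 and 3036 at time 48 and 7896, 7809, 5499 and 5302 at time 24 (-0.64 ± 0.09, adjusted p = 0.0079). Lgals3, or galectin-3, read 329, 282, 89.5 and 72.0 at time 48, against 793, 799.5, 173 and 147 at time 24, with large drops in both pairs (-1.04 ± 0.12, adjusted p = 0.0055). S100a4, a calcium-binding protein used as a fibroblast marker, changed by -0.77 ± 0.17, Capg, which caps actin filaments, by -0.75 ± 0.14, and Tes, a LIM protein of focal adhesions, by -0.52 ± 0.10. Tes read 672, 671, 659 and 528 at time 48, against 876, 972, 931 and 893 at time 24, with no overlap (adjusted p = 0.028). Of 26 tested contractile and actin genes, Mylk rose and Vim fell. Of 11 tested fibroblast markers, S100a4 and Vim fell and Lum rose, with a median of 0.01. Over all tested genes, 0.256% rose and 0.524% fell. The remaining genes that fell were St3gal4 (-0.55), a sialyltransferase, Niban1 (-0.56), a stress-responsive gene, Fbxo2 (-0.54), an F-box protein that binds glycoproteins, Crip2 (-0.51), a LIM protein, Frrs1 (-0.47), a ferric reductase, Ndc1 (-0.47), a nuclear pore protein, Rpn2 (-0.44), a subunit of oligosaccharyltransferase, and Myo5a (-0.44), an unconventional myosin. Niban1 read 68.1, 73.4, 66.7 and 67.7 at time 48, against 94.6, 110.5, 123 and 142 at time 24, without overlap. These are low signals. Its mean over the 8 arrays, 93.3, lay under the filter of 123, while at time 0 it averaged 402.5 in wild type.

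Of the 16 genes named by rule, the 8 with the smallest p without the block in each direction, Hmgxb4, Grk5 and Fxyd3 did not pass with it. Hmgxb4, which encodes an HMG-box protein, changed by 0.42 (adjusted p = 0.085), the receptor kinase gene Grk5 by 0.40 (adjusted p = 0.085) and Fxyd3, a regulator of the sodium pump, by -0.50 (adjusted p = 0.051). Fxyd3 had 380.4, 296, 385 and 244 at time 48 and 397, 473, 467 and 539 at time 24. On other probe sets of the 58 genes, 24 probe sets in 17 genes had signals above the filter, and all 24 changed in the same direction as the one used. The sizes differed. Vcam1 gave 0.45 and 0.37 against 0.72 on the one used, Vcan -0.38 and -0.52 against -0.83, and Smoc2 0.53 against 1.09. Mylk (0.97 against 0.81) and Tacc3 (-0.67 against -0.45) each had a probe set with a larger change.

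Most gene lists held no gene that passed. That was so for 58 tested subunits of oxidative phosphorylation (median -0.08), 31 proteasome subunits (median -0.12), 36 cytosolic ribosomal proteins (median 0.01), 34 ribosome biogenesis genes (median 0.00), 20 genes of glycolysis and glucose uptake (median -0.05) and 37 lysosomal genes (median -0.02). It was also so for 28 genes of amino acid supply and the ATF4 response, 27 endoplasmic reticulum chaperones, 18 interferon-induced genes, 14 clock genes, 20 FoxO targets and 15 genes of the Akt and PI3K pathway. Of 12 tested adipocyte genes none passed, with a median of 0.06. Akt1 itself read 1279, 1395, 843 and 1030.0 at time 48 and 1068, 1114, 917 and 940.4 at time 24 in wild type, and its arrays overlapped (0.15 ± 0.15, adjusted p = 0.79). Akt2 changed by -0.08 ± 0.11 (adjusted p = 0.86).

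**Figure D3:**
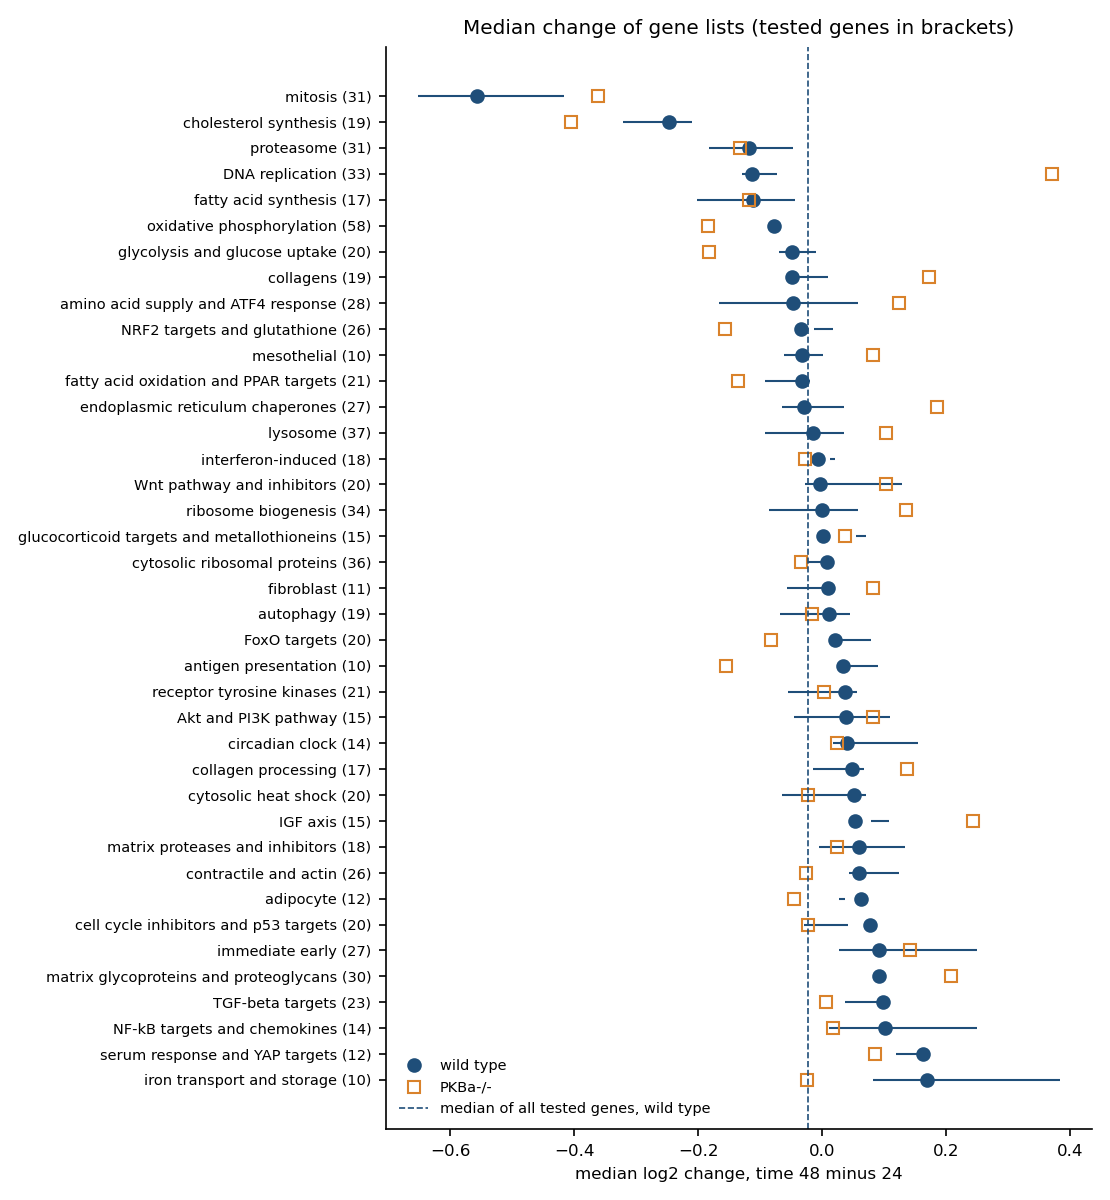
Median log2 change from time 24 to time 48 of each gene list with at least 10 tested genes, in wild type (filled circles, with a line that joins the medians in the 2 replicate pairs) and in PKBa-/- (open squares); the dashed line is the wild type median of all tested genes. Mitosis genes lie lowest in wild type at -0.56, followed by cholesterol synthesis at -0.25, and DNA replication genes lie at -0.11 in wild type and 0.37 in PKBa-/-.

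The sum of 12 endothelial markers on the array ran from 2619 to 3025 at time 48 and from 2320 to 2444 at time 24, without overlap. Its brightest member was Kdr, a VEGF receptor, at 1412 ± 197 at time 48 and 1056 ± 191 at time 24. None of the 3 tested endothelial markers passed, and the defining markers Pecam1 and Cdh5 averaged 54.8 and 49.9 at time 48, and 49.9 and 54.5 at time 24, below the filter of 123. The part of these signals in the changes above was not tested. The sums of the other marker lists overlapped between the times.

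Median mitosis gene levels relative to time 0 were lower at time 2 (-0.44), near time 0 at time 6 (0.11), higher at time 24 (0.24) and lower at time 48 (-0.28) in wild type, as log2 differences of group means. Ccnb2 averaged 449, 337, 317, 768 and 349.5 at times 0, 2, 6, 24 and 48, so that the highest level was at time 24. Ephx2 averaged 66.5, 90.1, 200.1, 776 and 329.5, a climb to time 24 followed by the late drop. Vcan averaged 468, 570.4, 2433, 1999 and 1100.3, with its highest level at time 6. Other genes came back towards earlier levels at time 48. Cryab averaged 968, 855, 481, 328 and 618, Vcam1 1389.7, 1354, 476, 725 and 1201 and Fscn1 3639.6, 3047, 1918, 1914 and 2764 at the 5 times, each with its lowest level at time 6 or 24. Fos had its peak at time 2 (184, 1707, 261, 215 and 387), and the late rise was small beside it. Nid2 and Penk had their highest averages at time 48, with 291, 266, 228, 293 and 503 for Nid2 and 170.0, 203, 243, 216 and 543 for Penk. These time courses are descriptions, and time 2 has replicates 1 and 2 alone.

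**Figure D4:**
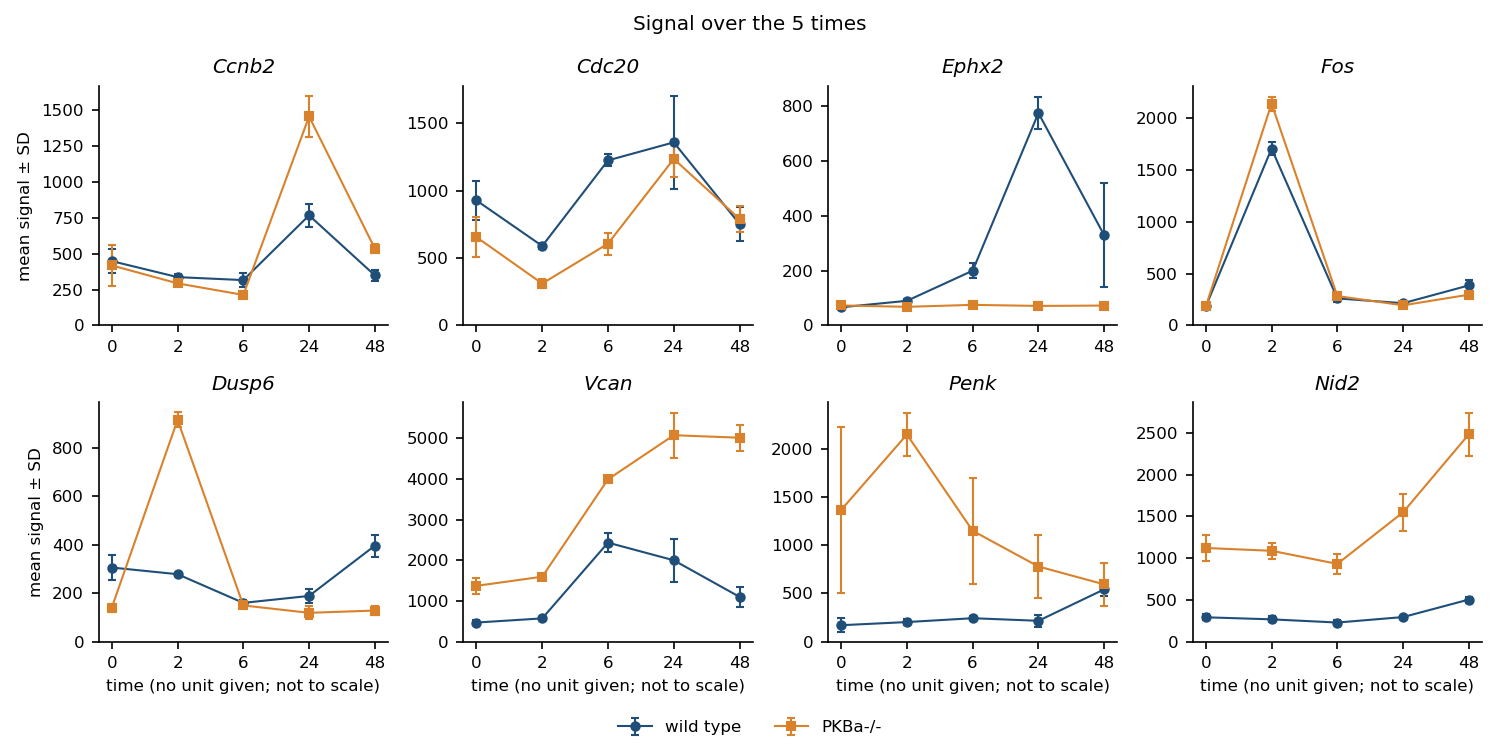
Mean signal ± SD over 4 arrays (2 at time 2) at the 5 times, in wild type (circles) and PKBa-/- (squares) fibroblasts; times are evenly spaced and not to scale. Ccnb2 and Cdc20 were lower at time 48 than at time 24 in both genotypes, while Ephx2 stayed low in PKBa-/- at all times.

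The same step in PKBa-/- fibroblasts, on 8 arrays that share none with wild type, held more genes that passed. With the block, 379 genes passed (5.1%), 216 higher at time 48 (2.9%) and 163 lower (2.19%), and without it 10 (0.134%). Of the 58 wild type genes, 17 passed with the same sign in PKBa-/-, which is 29.3% of the wild type genes and 4.49% of the PKBa-/- genes. These 17 hold 7 of the 11 mitosis genes, Bub1b, Ccnb2, Cdc20, Cenpa, Kif20a, Pttg1 and Ube2c, with Cdca3, Ckap2, Capg, Selenoh and Tes lower and Fos, Hmox1, Lum, Nid2 and Smoc2 higher. Mitosis genes had a median of -0.56 in wild type and -0.36 in PKBa-/-, with 11 and 9 that fell, against 0.524% and 2.19% of all genes. None of the 31 passed the test of the difference, which 0.659% of all genes passed, so this does not show equal changes. Their median difference, wild type minus PKBa-/-, was -0.20, against -0.03 for all genes, and 23 of the 31 were below 0. It was 0.03 in replicates 1 and 2 and -0.43 in replicates 3 and 4. Ccnb2 had 542, 576, 532 and 495 at time 48 in PKBa-/-, against 1609, 1526, 1281 and 1415 at time 24 (-1.39 ± 0.17, adjusted p = 0.00056). Its change differed between the genotypes by 0.32 ± 0.24 (adjusted p = 0.7).

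The difference between the genotypes was tested as the wild type change minus the PKBa-/- change. Without the block no gene passed (0%), with 240 (3.23%) at an unadjusted p under 0.05. With it, 49 genes passed (0.659%), 19 with a higher change in wild type (0.256%) and 30 with a lower one (0.403%). Of these 49, 11 are among the 58 wild type genes, with which they share the wild type arrays, and 39 had a change that passed in PKBa-/-. St3gal4 and S100a4 passed in opposite directions. St3gal4 read 356, 308, 278 and 273 at time 48 and 540.2, 499, 386 and 417 at time 24 in wild type, and 617, 712, 704 and 763 at time 48 and 426, 452, 438 and 342 at time 24 in PKBa-/-. It was lower at time 48 in all wild type arrays and higher at time 48 in all PKBa-/- arrays (-1.26 ± 0.16, adjusted p = 0.0047). The change of S100a4 was -0.77 in wild type against 0.63 in the PKBa-/- arrays (-1.41 ± 0.23, adjusted p = 0.018).

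Penk and Fap rose in wild type, and in PKBa-/- their changes were -0.35 (adjusted p = 0.35) and -0.31 (adjusted p = 0.32). The differences were 1.59 ± 0.27 for Penk and 1.19 ± 0.22 for Fap (adjusted p = 0.019 and 0.028). Nell2 and Ap1s2 also differed (0.76 and 0.65). In PKBa-/-, Nell2 averaged 99.4 at time 48 and 114 at time 24, under the filter of 123. Lgals3, Ptn, Vcan, Niban1 and Anxa2 fell in wild type, and their changes in PKBa-/- lay between -0.04 for Lgals3 and 0.24 for Niban1 with none passing. The differences were -0.997, -0.98, -0.82, -0.79 and -0.72 in that order. All PKBa-/- arrays of Lgals3 at both times were below the filter. For Niban1 the mean of the 8 wild type arrays, 93.3, was also below it. Vcan read 4712, 4789, 5176 and 5377 at time 48 in PKBa-/-, against 4867, 5418, 4395 and 5619.8 at time 24, a flat course at higher signals than in wild type. For other genes that fell or rose in wild type the difference did not pass, among them Ephx2 (-1.34 ± 0.36, adjusted p = 0.12), which in PKBa-/- read 72.6, 69.7, 78.7 and 70.1 at time 48 and 57.8, 65.9, 71.4 and 90.8 at time 24, below the filter. Dusp6 changed by 0.09 in PKBa-/-, with a difference of 0.87 (adjusted p = 0.074).

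The other 38 genes with a difference had no wild type change that passed. Dpt, or dermatopontin, a matrix protein, read 47.1, 66.1, 52.4 and 71.8 at time 48 and 47.5, 51.6, 66.9 and 66.2 at time 24 in wild type, and 4817, 4866, 4496 and 4867 at time 48 and 2265, 2271, 2346 and 1907 at time 24 in PKBa-/-, where it rose (1.11 ± 0.12, adjusted p = 0.00031). Its wild type arrays were all below the filter, which the gene passed through PKBa-/- alone, so its difference is no comparison of changes. Mgp and Dcn, both matrix genes, changed by -0.02 and 0.37 in wild type, and by 1.33 and 1.35 in PKBa-/- (differences -1.35 and -0.98). Pcna and Rpa2, a subunit of the single-strand DNA binding protein, changed by -0.12 and -0.00 in wild type, and by 0.75 and 0.65 in PKBa-/- (differences -0.88 and -0.66). In the whole DNA replication list, 13 of 33 rose in PKBa-/-, against 2.9% of all genes, and none passed in wild type. In the test of the difference itself 2 of the 33 passed, Pcna and Rpa2, against 0.659% of all genes. In the opposite direction, Cux1, a homeobox gene, Ddr1, a collagen receptor, Atp2c1, a calcium pump of the Golgi, Casp12, a caspase of the endoplasmic reticulum, and Grb14, an adaptor of the insulin receptor, fell in PKBa-/- and did not pass in wild type. Cux1 read 529.7, 458, 452 and 466 at time 48 and 401, 440.3, 388 and 362 at time 24 in wild type, and 250.3, 219.5, 211 and 207 at time 48 and 399, 374, 391 and 344 at time 24 in PKBa-/- (0.93 ± 0.12, adjusted p = 0.0047). The differences were 0.83 for Ddr1, 0.66 for Atp2c1, 0.77 for Casp12 and 1.04 for Grb14. Grb14 averaged 95.5 at time 24 in wild type and 102 at time 48 in PKBa-/-, both under the filter. The genes with the lowest and highest differences were Igfbp2, an IGF binding protein (-1.80), and Grem1, a BMP antagonist (1.76), with changes of -0.23 and 0.06 in wild type, and of 1.57 and -1.71 in PKBa-/-.

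**Figure D5:**
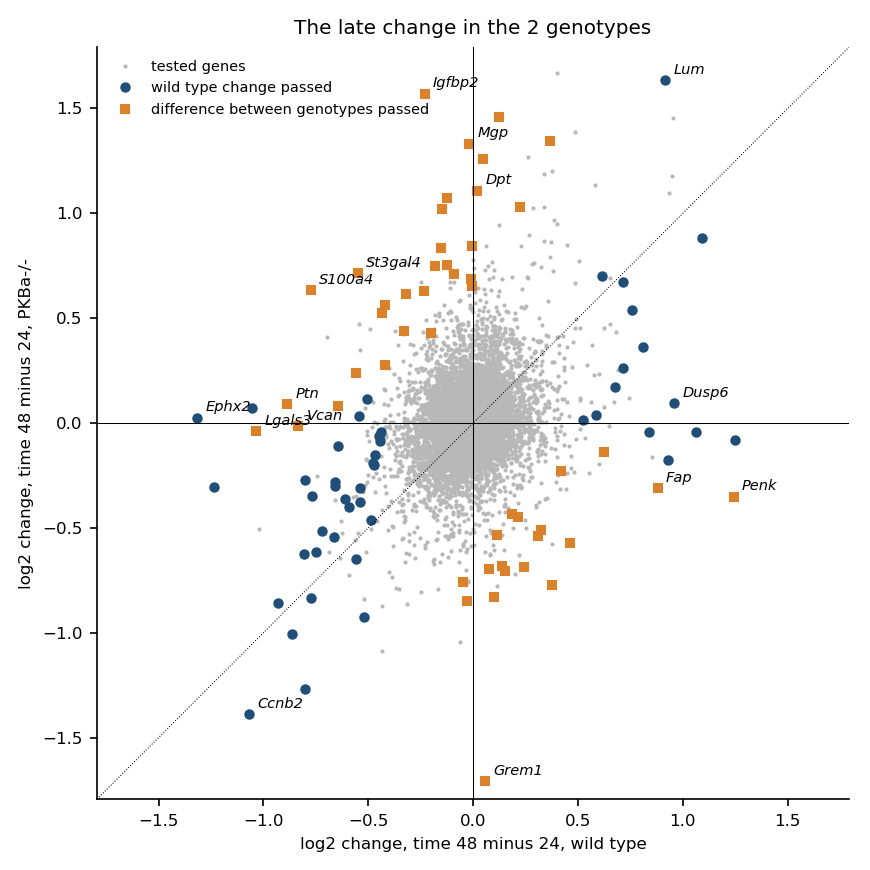
Log2 change from time 24 to time 48 in wild type (x axis) and in PKBa-/- (y axis) of each tested gene; circles passed in wild type, squares passed in the test of the difference between genotypes, and the dotted line marks equal change. Ccnb2 lies near the dotted line, while S100a4 and St3gal4 lie below 0 in wild type and above 0 in PKBa-/-.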

How the data were processed

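Biotin-labelled cRNA of 36 RNA samples was hybridized to Affymetrix arrays, per the labels. The authors deposited signal intensities, 1 for each of 22690 probe sets in an array, between 8.62 and 19337 and not on a log scale. Their summarisation and normalization are not given in the sources used here. Of the probe sets, 20380 had 1 gene in the platform annotation, 691 several, 1555 none and 64 were controls, and the first kind entered the fits. The probe set with the highest mean log2 signal over all arrays stood for each of 12393 genes, as log2(signal + 32). No normalization was added, because array medians differed by at most 1.09 times. The 40% of genes with the lowest mean (signal under about 123) were left out, which left 7436.

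Limma (version 3.58.1, R 4.3.3) was used to fit 10 group means to 18 averages of replicate pairs, with 8 residual and 4.24 prior degrees of freedom. Each contrast was tested two-sided with Benjamini-Hochberg adjustment at 0.05. Within wild type, same-numbered arrays of times 48 and 24 deviated together from their group means (correlations of 0.535 to 0.719 over the 4 numbers, and 0.204 to 0.591 in PKBa-/-). The labels give the numbers and do not say what they mark, so the pairing comes from these correlations. Arrays with different numbers were not compared in this way, so matching by single number is not shown. The fit with the replicate pair within genotype as a block (6 residual and 7.71 prior degrees of freedom) is therefore given beside the first, and its calls were taken up after the values were seen.

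Genes named by rule were the 12 highest and 12 lowest wild type changes among genes that passed in both pairs, or, with under 5 passing, the 8 smallest p in each direction. They also include the 8 smallest p of the difference between genotypes, and Akt1 and Akt2. A rule for up to 4 members of each list with at least 3 calls named no gene, as no wild type change passed without the block. Genes that passed with the block, and others used as examples, were named after their values were seen. The comparison, gene lists and members were chosen with earlier results of these data known. The procedure was tested on simulated data. Alternatives were quantile normalization, array weights, an intensity trend, offsets of 1, 16 and 64, other filters, the mean over the probe sets of a gene, single arrays, a random pair effect, blocks for the replicate pair or number, each pair alone, the compared groups alone and each array left out. Alternatives of the blocked fit, and leaving out time 2, were added after the data were seen. Promoter sequences are from RefSeq (GRCm38.p6). The remaining probe sets were not used here.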

Additional observations from a re-analysis of the deposited data

Results flagged for a closer look

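In 7 of 134 groups of 4 wild type arrays checked, 1 array stood apart from the other 3 by more than Dixon's 95% limit, where chance gives about 5%. At time 48 these were Fscn1 in replicate 3 (2300.2), Vcam1 in replicate 4 (1046) and Tes in replicate 4 (528), each the lowest array of its gene. At time 24 they were Ephx2 in replicate 2 (865) and Fbxo2 in replicate 4 (682), each the highest, and Cryab in replicate 1 (307) and Grb14 in replicate 2 (83.9), each the lowest.

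The change from time 24 to time 48 differed between the genotypes for 23 of the genes described, in the fit with the replicate block. As wild type minus PKBa-/- log2 change, the difference was above 0 for Grem1 (1.76), Penk (1.59), Fap (1.19), Grb14 (1.04), Cux1 (0.93), Ddr1 (0.83), Casp12 (0.77), Nell2 (0.76), Atp2c1 (0.66) and Ap1s2 (0.65). It was below 0 for Igfbp2 (-1.80), S100a4 (-1.41), Mgp (-1.35), St3gal4 (-1.26), Lgals3 (-0.997), Dcn (-0.98), Ptn (-0.98), Pcna (-0.88), Vcan (-0.82), Niban1 (-0.79), Anxa2 (-0.72) and Rpa2 (-0.66). It was also below 0 for Dpt (-1.09), whose wild type arrays were all under the filter on low signal, so that this value only mirrors its PKBa-/- change. All PKBa-/- arrays of Lgals3 at both times were likewise under that filter. So were the mean of Niban1 over the 8 wild type arrays (93.3) and the PKBa-/- means of Nell2 at both times. For Grb14 the wild type mean of time 24 (95.5) and the PKBa-/- mean of time 48 (102) were under it. None of the 23 differences passed without the block.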

How the results depend on the processing

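The number of genes that passed depended on how the replicate pairs were treated. For wild type the count was 0 without a block under every offset, filter, probe set, normalization and weighting tried and with any array left out (0 to 0). It was 127 with single arrays, 11 with a random pair effect, 58 with the replicate pair as a block, 267 with the replicate number as a block, 1297 in replicates 1 and 2 alone and 526 in replicates 3 and 4 alone. The counts of 127, 267, 1297 and 526 treat the arrays of a pair as independent, which is not shown. For PKBa-/- the count of 10 became 584, 115, 379, 957, 1949 and 915 in the same order, 1 with an offset of 1, 4 with an offset of 16, 19 with no filter, 1 with the mean of probe sets, 0 with array weights, 25 with the compared groups alone, and 4 to 15 with an array left out, 4 without time 48 replicate 2 or time 24 replicate 4 and 6 without time 24 replicate 2. For the difference the count of 0 became 117, 5, 49, 285, 1071 and 961, 1 with no filter, and 0 to 0 with an array left out.

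With the replicate pair as a block, the 58 wild type genes became 12 with no filter, 36 with 60% of genes left out, 15 with the mean of probe sets, 88 with quantile normalization (all 58 among them), 1 with array weights and 196 with the compared groups alone, and 49 to 66 with an array left out. The 11 mitosis genes became 0 without the block, 24 with the number as a block, 2 with no filter, 2 with the mean of probe sets, 17 with quantile normalization, 0 with array weights, 23 with the compared groups alone and 9 to 12 with an array left out. The 49 differences became 10 with no filter, 4 with array weights, 173 with the compared groups alone and 38 to 70 with an array left out, and the 379 genes of PKBa-/- gave 335 to 454. The cause of these moves was not tested. The 16 wild type changes and 8 differences named by rule kept their sign under every alternative, as did the medians of mitosis, DNA replication and cholesterol synthesis genes, while several list medians near 0 changed sign. Limits: 2 replicate pairs per group, unstated normalization and medium, and no time unit.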

Other observations

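In replicates 1 and 2 alone, 1297 wild type genes passed between the times, and in replicates 3 and 4 alone 526, with single arrays as replicates. Of these, 177 passed in both in the same direction (13.6% of the first list and 33.7% of the second), 70 higher and 107 lower at time 48. In opposite directions 17 passed. The 2 arrays of a pair are not shown to be independent, so these counts may be too high. They do not establish that a gene changed in opposite directions. Among the 17, Vdac1, a channel of the outer mitochondrial membrane, read 3622, 3543, 2387 and 2232 in replicates 1 to 4 at time 48, against 2674, 2754, 2811 and 3061 at time 24. Irx1, a homeobox gene, read 222, 212, 224 and 306 at time 48, against 284, 288, 147 and 175 at time 24. Bhlhe40, a clock-linked repressor, read 341, 378, 284 and 334 at time 48, against 512, 474, 240.3 and 224 at time 24. These genes were chosen after their values were seen.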
